A study of Mus musculus with 9 samples.

Results

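Amino acid transporters of the plasma membrane were followed in a mouse macrophage line exposed to lipopolysaccharide (LPS), with and without ProNa. All 10 genes of the set were found among the 54725 genes of the deposited expression matrix. The set was chosen by symbol, with earlier results of these data known. It comprises Slc3a2, Slc7a5, Slc7a7 and Slc7a8, which form heterodimeric exchangers, Slc1a4 and Slc1a5, which exchange small neutral amino acids, Slc38a1, Slc38a2 and Slc6a9, which take up amino acids together with sodium, and Slc43a2, a facilitated transporter. The series has 9 samples of RAW264.7, a line that grows from a mouse tumour induced by Abelson leukaemia virus, with 3 samples each titled CON, LPS and ProNa. The treatment text is the same for every sample: 1 mM ProNa for 24 h, or none, and then LPS at 100 ng/mL for 12 h. It does not say which of these steps the CON samples received, it does not spell out ProNa, and no group is described as given ProNa without LPS. All samples come from 1 cell line, and no label says that they were separate cultures, so the p-values below measure the spread between samples that may be technical replicates.

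Amino acids do not cross the plasma membrane unaided. Obligatory exchangers, such as the heterodimers built on the heavy chain Slc3a2 (CD98), swap an amino acid inside the cell for another outside, so they work together with sodium-coupled carriers that fill the cell. In macrophages these carriers supply glutamine, leucine, serine and the other amino acids used for protein synthesis, cytokine production and the control of mTORC1, the kinase complex that couples growth to amino acid supply. When amino acids run short, the kinase Gcn2 and the transcription factor Atf4 induce several of the same transporters.

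The levels below are FPKM, fragment counts scaled to transcript length and to sequencing depth, which can be compared between genes. They are the authors' values for each group, with transcripts of a gene summed here. The 9 matrix columns that hold single libraries carry names that no label gives, so no SD can be placed beside a level and it cannot be said whether the groups overlap. Differences are log2 fold changes from the authors' deposited table, called at an adjusted p under 0.05. The scales do not coincide: for genes of at least 1 FPKM, the tabulated log2 fold changes lie a median of 0.26 above the log2 FPKM ratios for LPS against CON, 0.13 above for ProNa against LPS and 0.40 above for ProNa against CON. Of the cell type markers, 10 of 10 macrophage genes reached 1 FPKM in every group, with a sum of 14342 FPKM in CON, 3906 FPKM in LPS and 5444 FPKM in ProNa. Lysozyme, gene Lyz2, made up most of the sum in CON, at 9719 FPKM against 661 in LPS and 1586 in ProNa, while Cd14 had 757, 1406 and 1975 FPKM. For LPS against CON, 5 of these 10 markers were higher and 5 lower by the authors' deposited table, or 3 higher and 7 lower on the FPKM scale. The extraction text speaks of colonic segments, and 0 of 10 colon epithelial markers reached 1 FPKM in any group. The 10 epithelial genes together came to 0.167, 0.17 and 0.1 FPKM. Of 10 fibroblast and smooth muscle markers, Acta2 alone reached 1 FPKM, with 0.947, 13.7 and 17.6 FPKM in CON, LPS and ProNa, and the list summed to 1.48, 14.2 and 17.8 FPKM. Of 10 T and B cell markers, Ighm alone did, with 222, 1.26 and 2.32 FPKM, and the list summed to 222, 1.31 and 2.34 FPKM. The part of these markers in the results below was not tested. In RNA from whole cultures, fewer cells of a type and less RNA per cell cannot be told apart.

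With LPS, the transporters changed in both directions. The authors' deposited table calls all 10 against CON, 8 of them higher and 2 lower. Among all 17795 genes tested 9850 passed, or 55.4%, with 28.1% higher and 27.2% lower, so most genes were called in this comparison. A change of at least 2-fold was listed for 6 of 10 transporters and for 27.9% of all genes. The median log2 fold change of the 10 transporters was 0.82 in the authors' deposited table, against -0.02 for all genes tested. These contrasts with all genes were not tested, and the 10 were chosen with earlier results of these data known. All 10 reached 1 FPKM in every group, while in CON 11688 genes did, beside the 17795 tested. The heavy chain Slc3a2 stood highest in both LPS and ProNa. The glutamine exchanger Slc1a5 and the leucine facilitator Slc43a2 were the 2 that fell.

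ProNa, compared with LPS, moved fewer of them and by less. The authors' deposited table calls 5 of 10: Slc7a8 and Slc1a5 were higher, and Slc3a2, Slc38a1 and Slc6a9 were lower. The share over all 12732 genes was 30.6%, with 16.5% higher and 14.1% lower. No transporter changed by as much as 2-fold in this comparison, where 3.25% of all genes did. Against CON, all 10 again passed in the authors' deposited table, with the same 8 higher and 2 lower as for LPS against CON, beside 54.4% of 18540 genes tested, 27.7% higher and 26.6% lower. At least 2-fold were 7 of 10, and 27.1% of all genes. The comparisons share samples, so these counts are not separate observations. The directions of all called transporters stayed the same on the FPKM scale, in each of the 3 comparisons.

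The summed level of the 10 transporters was 450 FPKM in CON, 1317 FPKM in LPS and 1022 FPKM in ProNa, or 0.0569%, 0.168% and 0.129% of the FPKM of all genes. Most of that difference lay in Slc3a2. Without it the sums were 367, 403 and 356 FPKM. The ProNa level lay between those of CON and LPS for 9 of 10 transporters, the exception being Slc7a8. The same held for 39.6% of the 12545 genes that reached 1 FPKM in a group. That share includes genes not called for LPS against CON, where all 10 transporters were called. Of the 9, Slc7a5, Slc7a7, Slc1a4, Slc38a2 and Slc43a2 were not called for ProNa against LPS. For Slc43a2 the sign of that difference turns when the offset between the scales is subtracted. The group values have no spread beside them.

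**Figure D1:**
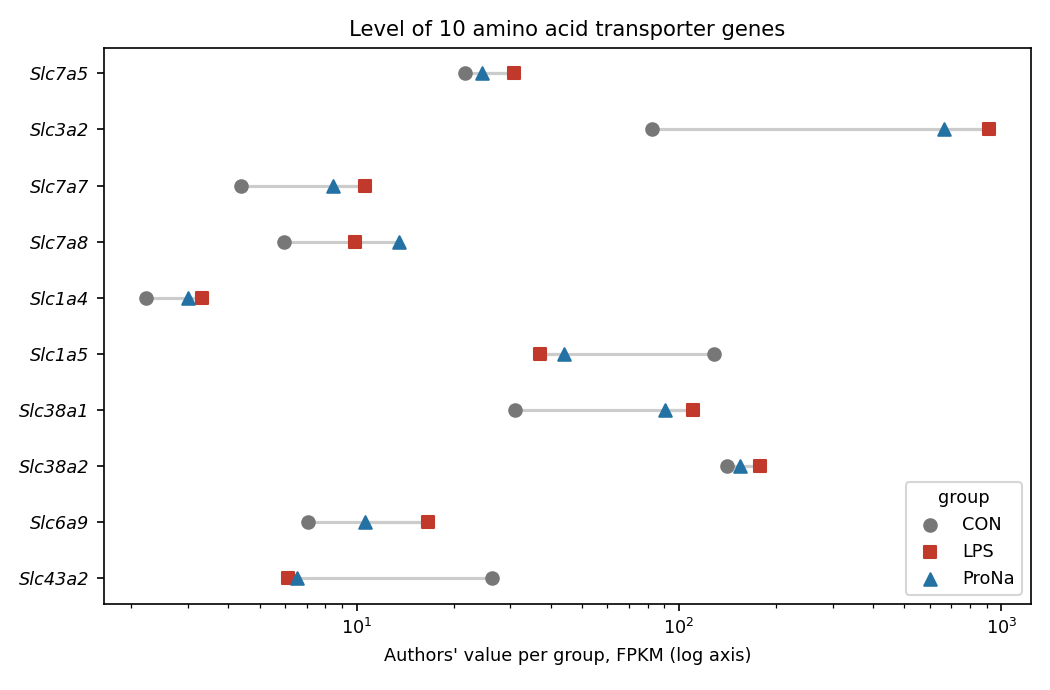
Level of each of the 10 transporters in FPKM (horizontal axis, log scale), with 1 point per group for CON, LPS and ProNa. Each point is the authors' value for the group, without an error. Slc3a2 moves from 82.7 FPKM in CON to 914 in LPS and 666 in ProNa, while Slc1a5 and Slc43a2 are lower in LPS and ProNa than in CON.

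The heterodimeric exchangers consist of the heavy chain Slc3a2, a glycoprotein that brings its partners to the cell surface, and a light chain of the Slc7 family that does the transport. Slc3a2 (ENSMUSG00000010095, on chromosome 19) had 82.7 FPKM in CON, 914 FPKM in LPS and 666 FPKM in ProNa. LPS and ProNa were thus far above CON, and ProNa lay below LPS. The authors' deposited table lists it 14.2-fold higher in LPS than in CON, a log2 fold change of 3.83, and 11.3-fold higher in ProNa than in CON, each with an adjusted p listed as 0, that is, too small for the table. The ratio of FPKM for LPS to CON was smaller, 11.0. From LPS to ProNa, Slc3a2 fell 1.26-fold by the authors' deposited table (log2 fold change -0.34, adjusted p 7.43e-07). Among genes of at least 1 FPKM, Slc3a2 stood at percentile 89.6 in CON, 98.8 in LPS and 98.3 in ProNa.

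RefSeq promoter windows, on build GRCm38.p6, were matched for 7 of the 10 genes. Slc7a5, Slc1a5 and Slc38a1 had no window and were not searched for motifs. For Slc3a2, the gene with the largest difference, the stretch before the start that holds no exon of another transcript runs on the minus strand and is shown because none of the 6 motifs searched occurs in it. Capitals would mark a motif.
Slc3a2, chr19:8713898-8713960: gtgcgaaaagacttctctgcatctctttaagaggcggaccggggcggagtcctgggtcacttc
The motifs were searched on both strands in the 250 bases before each of 32851 starts. They were the C/EBP-ATF response element TGATGNAA, found in 3.45% of all windows, the AP-1 element TGAGTCA in 4.46%, the cAMP response element TGACGTCA in 1.55%, the antioxidant response element TGACNNNGC in 10.2%, the gamma-activated site TTCNNNGAA in 7.02%, and the NF-kB consensus, which has ambiguous positions, in 7.25%. A match is a string of letters and says nothing of binding. No match says only that these letters are not in this window.

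The light chain Slc7a5 (LAT1, chromosome 8) carries leucine and other large neutral amino acids into the cell in exchange for glutamine. Its level was 21.7 FPKM in CON, 30.8 FPKM in LPS and 24.4 FPKM in ProNa. ProNa lay between the other groups. In the authors' deposited table Slc7a5 was 1.72-fold higher in LPS than in CON (log2 fold change 0.79, adjusted p 3.74e-15) and 1.49-fold higher in ProNa than in CON (adjusted p 4.98e-13). Its log2 fold change for ProNa against LPS was -0.21 in the authors' deposited table and missed the threshold (adjusted p 0.0730). LAT1 and its heavy chain therefore differed in size of response: Slc3a2 had 3.82 times the FPKM of Slc7a5 in CON, 29.6 times in LPS and 27.3 times in ProNa.

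Slc7a7 (y+LAT1, chromosome 14) exports cationic amino acids such as arginine in exchange for neutral ones and sodium. It had 4.37 FPKM in CON, 10.6 FPKM in LPS and 8.45 FPKM in ProNa. The authors' deposited table lists it 3.22-fold higher in LPS than in CON (log2 fold change 1.69, adjusted p 6.31e-25) and 2.90-fold higher in ProNa than in CON (log2 fold change 1.54). ProNa against LPS gave a log2 fold change of -0.15 in the authors' deposited table, which missed the threshold (adjusted p 0.442). Much of the Slc7a7 signal lay in transcripts assembled from the reads instead of annotated ones, with a share of 33.8% in CON, 55.5% in LPS and 49.7% in ProNa. Over annotated transcripts alone, its log2 FPKM ratio with 0.5 added to each value was 0.63 for LPS to CON and 0.49 for ProNa to CON.

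Of the members with windows, Slc7a7 is the one with matches to the C/EBP-ATF element, and it also has an NF-kB match. Each 30-base stretch below lies on the minus strand of GRCm38.p6, with the motif in capitals.
Slc7a7, chr14:54417923-54417952: tagaagcTGATGCAAcagcttccccgaggg
Slc7a7, chr14:54418067-54418096: ccgcttgggctTGATGAAAggttcactggg
Slc7a7, chr14:54417807-54417836: cgctgcccctGGGACTTCCCggcctgggtt
The first and second hold the C/EBP-ATF element and the other the NF-kB consensus, 1 site that reads as a match on both strands. They belong to windows that start 7463 to 7728 bases from the 5′ end of ENSMUST00000195970, the Slc7a7 transcript with the highest FPKM. The window nearest to that end holds no match. Annotated transcripts of lower FPKM begin beside the windows of the first and last stretch. Of these, ENSMUST00000226753 had 0.117, 0.747 and 0.813 FPKM in CON, LPS and ProNa, and ENSMUST00000197440 had 0.0533, 0.787 and 0.353 FPKM.

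Slc7a8 (LAT2, chromosome 14) exchanges both large and small neutral amino acids, and it was the member with the highest level in ProNa of the 3 groups. It had 5.93 FPKM in CON, 9.85 FPKM in LPS and 13.5 FPKM in ProNa. By the authors' deposited table it was 1.59-fold higher in LPS than in CON (log2 fold change 0.67, adjusted p 4.89e-09). Against LPS, ProNa was 1.91-fold higher (log2 fold change 0.93, adjusted p 4.9e-20 in the authors' deposited table), and against CON it was 3.04-fold higher (log2 fold change 1.60). Among the 10 transporters this was the largest absolute log2 fold change for ProNa against LPS in the authors' deposited table. By FPKM ratio Slc7a8 was 1.37 times higher in ProNa and Slc6a9 differed more, being 1.57 times higher in LPS. An assembled fragment of 431 bases held 26.6% of the Slc7a8 FPKM in LPS, against 7.19% in CON and 6.48% in ProNa. Without that fragment the levels were 5.51, 7.23 and 12.7 FPKM, and ProNa to LPS had a ratio of 1.75. Over annotated transcripts alone, the log2 FPKM ratio for ProNa to CON was 0.72 with 0.5 added to each value. Assembled transcripts held 38.4% of Slc7a8 in CON, 57.8% in LPS and 53.2% in ProNa. The annotated ENSMUST00000022787 had 3.46 FPKM in CON and 3.82 in LPS, a ratio of 1.10. Much of the higher level in LPS thus lay in assembled transcripts. Slc7a7 and Slc7a8 lie on the same strand of chromosome 14, 304 kb apart in GRCm38.

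The Slc7a8 stretch before the start is shown as the promoter of the transporter with the largest tabulated fold change between ProNa and LPS. It lies on the minus strand of GRCm38.p6 and holds none of the motifs.
Slc7a8, chr14:54781947-54782136: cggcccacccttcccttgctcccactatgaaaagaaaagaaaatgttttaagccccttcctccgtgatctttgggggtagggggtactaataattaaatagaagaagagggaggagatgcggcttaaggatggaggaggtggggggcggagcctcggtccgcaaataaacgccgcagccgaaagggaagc

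**Figure D2:**
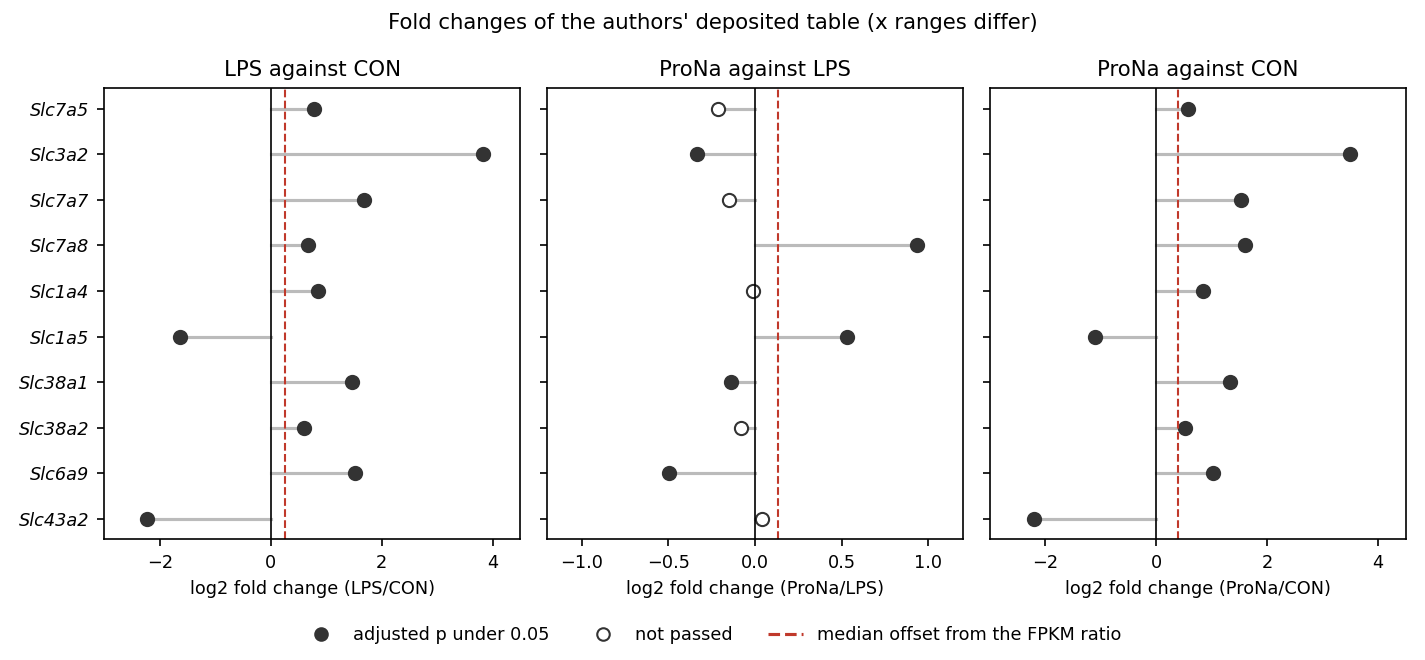
Log2 fold change of each transporter in the authors' deposited table (horizontal axis) in the 3 comparisons, each in a panel with its own range, with filled points for an adjusted p under 0.05 open points for the rest and a dashed line at the median offset from the FPKM ratio. Slc3a2 is at 3.83 and Slc43a2 at -2.24 for LPS against CON, while all 10 lie between -0.49 and 0.93 for ProNa against LPS.

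Slc3a2 also pairs with Slc7a6, Slc7a10 and Slc7a11, which are not among the 10. Slc7a11 (xCT), the cystine and glutamate exchanger, had 4.13 FPKM in CON, 350 FPKM in LPS and 265 FPKM in ProNa. The authors' deposited table gives it a log2 fold change of 5.44 for LPS against CON and -0.27 for ProNa against LPS (adjusted p 4.70e-04). Slc7a6 (y+LAT2) went the other way, with 17.5, 10.8 and 8.39 FPKM and a log2 fold change of -0.60 for LPS against CON in the authors' deposited table (adjusted p 4.59e-11). Slc7a10 was listed at 0 in every group.

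The light chains together therefore had 53.5 FPKM in CON, 412 FPKM in LPS and 320 FPKM in ProNa. Slc7a5 made up 40.5% of that sum in CON, 7.48% in LPS and 7.64% in ProNa. Slc7a11 went from 7.71% of it in CON to 84.9% in LPS and 82.9% in ProNa. Over annotated transcripts alone, its share was 2.21%, 87.2% and 85.7%. Slc7a8 held 11.1% in CON, 2.39% in LPS and 4.23% in ProNa. The heavy chain per light chain was 1.54 in CON, 2.22 in LPS and 2.08 in ProNa when all light chains were counted. When Slc7a11 was left out, the same ratio was 1.67 in CON, 14.7 in LPS and 12.2 in ProNa. These are ratios of RNA levels per length, with no error.

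**Figure D3:**
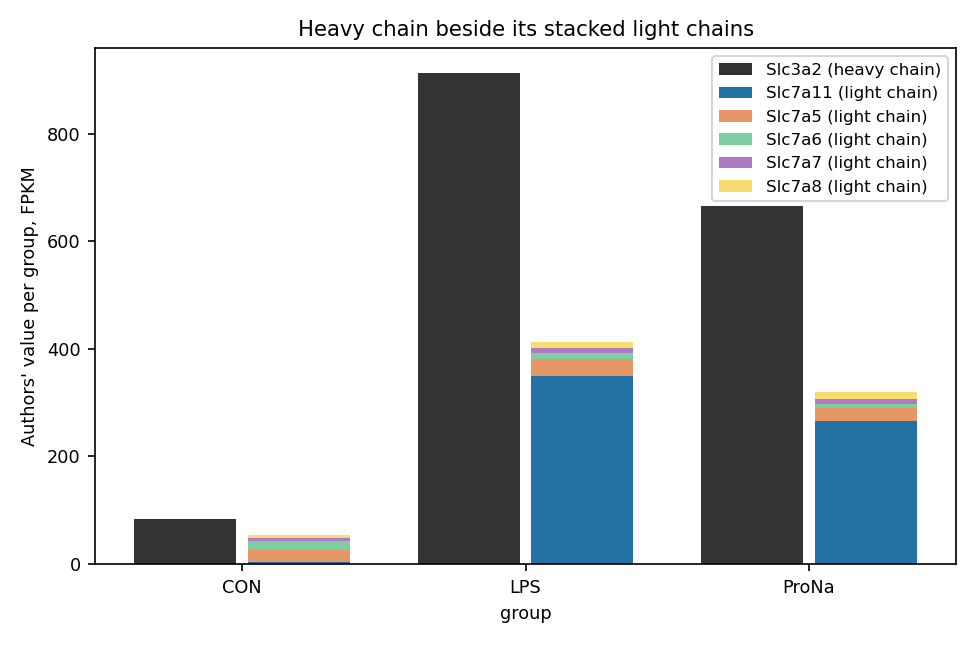
FPKM of Slc3a2 beside the stacked FPKM of its light chains Slc7a5, Slc7a6, Slc7a7, Slc7a8, Slc7a10 and Slc7a11 in CON, LPS and ProNa (vertical axis, linear from 0). The light chains sum to 53.5, 412 and 320 FPKM, Slc7a10 is at 0 and not drawn, and Slc7a11 takes up 84.9% of the stack in LPS.

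The family 1 exchangers changed in opposite directions from CON to LPS, and their levels came closer together. Slc1a5 (ASCT2, chromosome 7), which brings glutamine into the cell in exchange for other neutral amino acids, had 128 FPKM in CON, 37.2 FPKM in LPS and 44.1 FPKM in ProNa. LPS and ProNa were well below CON, and ProNa was above LPS. In the authors' deposited table it fell 3.10-fold in LPS (log2 fold change -1.63, adjusted p 9.80e-133), was 1.44-fold higher in ProNa than in LPS (log2 fold change 0.53, adjusted p 4.43e-11) and 2.14-fold lower in ProNa than in CON (log2 fold change -1.10). It went from percentile 93.6 of genes of at least 1 FPKM in CON to 75.8 in LPS and 79.6 in ProNa.

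Slc1a4 (ASCT1, chromosome 11), an exchanger of serine, alanine, cysteine and threonine, was the lowest of the 10 in every group, at 2.23 FPKM in CON, 3.32 FPKM in LPS and 3.01 FPKM in ProNa. The authors' deposited table lists it 1.80-fold higher in LPS than in CON (log2 fold change 0.85, adjusted p 1.35e-07) and 1.79-fold higher in ProNa than in CON. For ProNa against LPS its log2 fold change was -0.01 in the authors' deposited table and missed the threshold (adjusted p 0.957). The FPKM of Slc1a5 was 57.5 times that of Slc1a4 in CON, 11.2 times in LPS and 14.7 times in ProNa.

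The 3 members grouped here as sodium-coupled carriers, Slc38a1, Slc38a2 and Slc6a9, were each called higher for LPS against CON. This covers these 3 only. Of the other transporters tested, 16 were called higher and 8 lower, Slc6a6 among the lower. Slc38a1 (SNAT1, chromosome 15) takes up glutamine, alanine and serine. It had 31.0 FPKM in CON, 110 FPKM in LPS and 90.8 FPKM in ProNa. The authors' deposited table lists it 2.76-fold higher in LPS (log2 fold change 1.46, adjusted p 2.13e-172), 1.10-fold lower in ProNa than in LPS (log2 fold change -0.14, adjusted p 0.0347) and 2.52-fold higher in ProNa than in CON. The step between LPS and ProNa is thus small and close to the threshold, and it does not pass at an adjusted p under 0.01.

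Slc38a2 (SNAT2, chromosome 15), the related carrier that cells raise when amino acids are scarce, was abundant in every group, at 141 FPKM in CON, 178 FPKM in LPS and 154 FPKM in ProNa. It was the highest of the 10 in CON and came after Slc3a2 in LPS and ProNa. The authors' deposited table lists it 1.52-fold higher in LPS (log2 fold change 0.60, adjusted p 3.65e-18) and 1.44-fold higher in ProNa than in CON, and the log2 fold change of -0.08 for ProNa against LPS did not pass (adjusted p 0.402). After the offset between the scales is subtracted, the log2 differences of Slc38a2 were 0.34 for LPS against CON and 0.13 for ProNa against CON. Slc38a2 had 4.54 times the FPKM of Slc38a1 in CON, 1.62 times in LPS and 1.70 times in ProNa. The genes are neighbours on the same strand, 44.5 kb apart in GRCm38.

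Matches to the antioxidant response element, found in 10.2% of all windows, occur among the members with windows in Slc38a2 and Slc6a9. The Slc6a9 windows with a match lie 14299 and 20496 bases from the 5′ end of ENSMUST00000030269, its transcript with the highest FPKM. The Slc6a9 window nearest to that end holds no match. The Slc38a2 promoter, on the minus strand of GRCm38.p6, is shown. It holds 1 match to that element, in capitals, and none to the C/EBP-ATF element.
Slc38a2, chr15:96699731-96699978: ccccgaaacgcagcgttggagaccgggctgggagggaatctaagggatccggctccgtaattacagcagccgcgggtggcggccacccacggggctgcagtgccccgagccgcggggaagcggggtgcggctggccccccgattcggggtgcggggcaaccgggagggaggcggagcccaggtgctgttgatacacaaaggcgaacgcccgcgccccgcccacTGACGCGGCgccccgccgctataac

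Slc6a9 (GlyT1, chromosome 4) takes up glycine with sodium and chloride. It had 7.06 FPKM in CON, 16.7 FPKM in LPS and 10.6 FPKM in ProNa. LPS was the highest group, and ProNa lay between the others. By the authors' deposited table Slc6a9 was 2.86-fold higher in LPS than in CON (log2 fold change 1.52, adjusted p 1.89e-50), 1.41-fold lower in ProNa than in LPS (log2 fold change -0.49, adjusted p 2.02e-05) and 2.04-fold higher in ProNa than in CON (log2 fold change 1.03). This was the largest fall from LPS to ProNa among the 10.

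Slc43a2 (LAT4, chromosome 11) lets leucine, isoleucine, valine, methionine and phenylalanine cross without sodium or exchange. It had 26.3 FPKM in CON, 6.13 FPKM in LPS and 6.55 FPKM in ProNa. LPS and ProNa lay close together and well below CON. The authors' deposited table lists it 4.71-fold lower in LPS than in CON (log2 fold change -2.24, adjusted p 9.63e-89) and 4.57-fold lower in ProNa than in CON (log2 fold change -2.19). Its log2 fold change for ProNa against LPS was 0.04 in the authors' deposited table and missed the threshold (adjusted p 0.867), and it becomes -0.09 when the offset between the scales is subtracted. Slc43a2 went from percentile 67.1 among genes of at least 1 FPKM in CON to 29.8 in LPS and 32.9 in ProNa. Over all transcripts the leucine carriers thus changed rank. Slc7a5 had 0.825 times the FPKM of Slc43a2 in CON, 5.03 times in LPS and 3.73 times in ProNa. Over annotated transcripts alone the rank did not change, and Slc7a5 already stood above Slc43a2 in CON. Assembled transcripts held 40.4% of Slc43a2 and 0% of Slc7a5 in CON.

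The promoter of Slc43a2, on the plus strand of GRCm38.p6, is shown as that of the transporter with the largest fall. It holds 1 match to the NF-kB consensus, in capitals.
Slc43a2, chr11:75531444-75531693: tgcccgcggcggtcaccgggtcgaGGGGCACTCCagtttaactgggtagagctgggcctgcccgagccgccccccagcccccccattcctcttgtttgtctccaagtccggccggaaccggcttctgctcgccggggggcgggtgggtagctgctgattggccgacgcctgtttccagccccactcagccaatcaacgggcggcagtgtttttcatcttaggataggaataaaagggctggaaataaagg

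In order of level, Slc38a2 came first in CON, followed by Slc1a5, Slc3a2, Slc38a1, Slc43a2, Slc7a5, Slc6a9, Slc7a8, Slc7a7 and Slc1a4. In LPS the order was Slc3a2, Slc38a2, Slc38a1, Slc1a5, Slc7a5, Slc6a9, Slc7a7, Slc7a8, Slc43a2 and Slc1a4. ProNa had the same order as LPS apart from Slc7a8, which stood above Slc6a9 and Slc7a7. Without values per library, it cannot be said which neighbours in these orders differ beyond their spread.

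The transcripts of the 10 genes were read from the same matrix, as shares of a gene's FPKM and with no test. All 68 annotated transcripts were found with the same length in GENCODE M21. Slc38a1 changed its leading transcript. ENSMUST00000100262, of 3183 bases, had 2.97 FPKM in CON, 74.0 FPKM in LPS and 59.1 FPKM in ProNa, or 9.59%, 67.1% and 65.1% of the gene. The longer ENSMUST00000088454, of 6966 bases, had 11.3, 13.3 and 10.8 FPKM and led in CON with 36.4% of the gene. ENSMUST00000088452, of 7266 bases, had 9.00, 12.4 and 12.8 FPKM. The higher FPKM of Slc38a1 in LPS and ProNa thus lay mostly in the short transcript.

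In GENCODE M21 these 3 transcripts of Slc38a1 have 16 exons each and the same coding blocks, 1455 bases long. They differ in their untranslated ends: the 3′ end, stop codon counted, has 727 bases in the short transcript and 5296 in each of the longer ones. The longer ones also begin 288 and 951 bases upstream of it. The file gives estimates for whole transcripts, so the data do not show which end carried the difference. The FPKM ratio of Slc38a1 for LPS to CON, 3.56, was above the 2.76-fold of the authors' deposited table.

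Slc43a2 also held a larger share in a short form in LPS and ProNa. ENSMUST00000108433, of 3236 bases, made up 9.41% of the gene in CON, 27.1% in LPS and 38.4% in ProNa, with 2.47, 1.66 and 2.51 FPKM. ENSMUST00000042561, of 6891 bases, went from 29.1% in CON to 20.8% in LPS and 12.8% in ProNa. Both encode 1704 bases, and their 3′ ends, stop codon counted, have 1410 and 5102 bases. Assembled transcripts held 40.4%, 22.8% and 18.1% of Slc43a2. Over annotated transcripts alone, its log2 FPKM ratio was -1.63 for LPS to CON and -1.46 for ProNa to CON, with 0.5 added to each value.

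Slc7a8 was led by the annotated ENSMUST00000022787 in CON and LPS, with 58.4% and 38.8% of its FPKM. In ProNa the assembled MSTRG.6241.2 held 46.7% and ENSMUST00000022787 45.0%. The 7 other transporters had the same leading transcript in all 3 groups. In Slc3a2, ENSMUST00000010239 held 77.0% in CON, 86.5% in LPS and 84.9% in ProNa. A single transcript made up 98.6% to 99.1% of Slc7a5 and 93.9% to 95.9% of Slc38a2. In Slc6a9, ENSMUST00000030269 held 60.7%, 54.2% and 63.1%, and ENSMUST00000063857 held 32.5%, 42.0% and 35.2%.

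**Figure D4:**
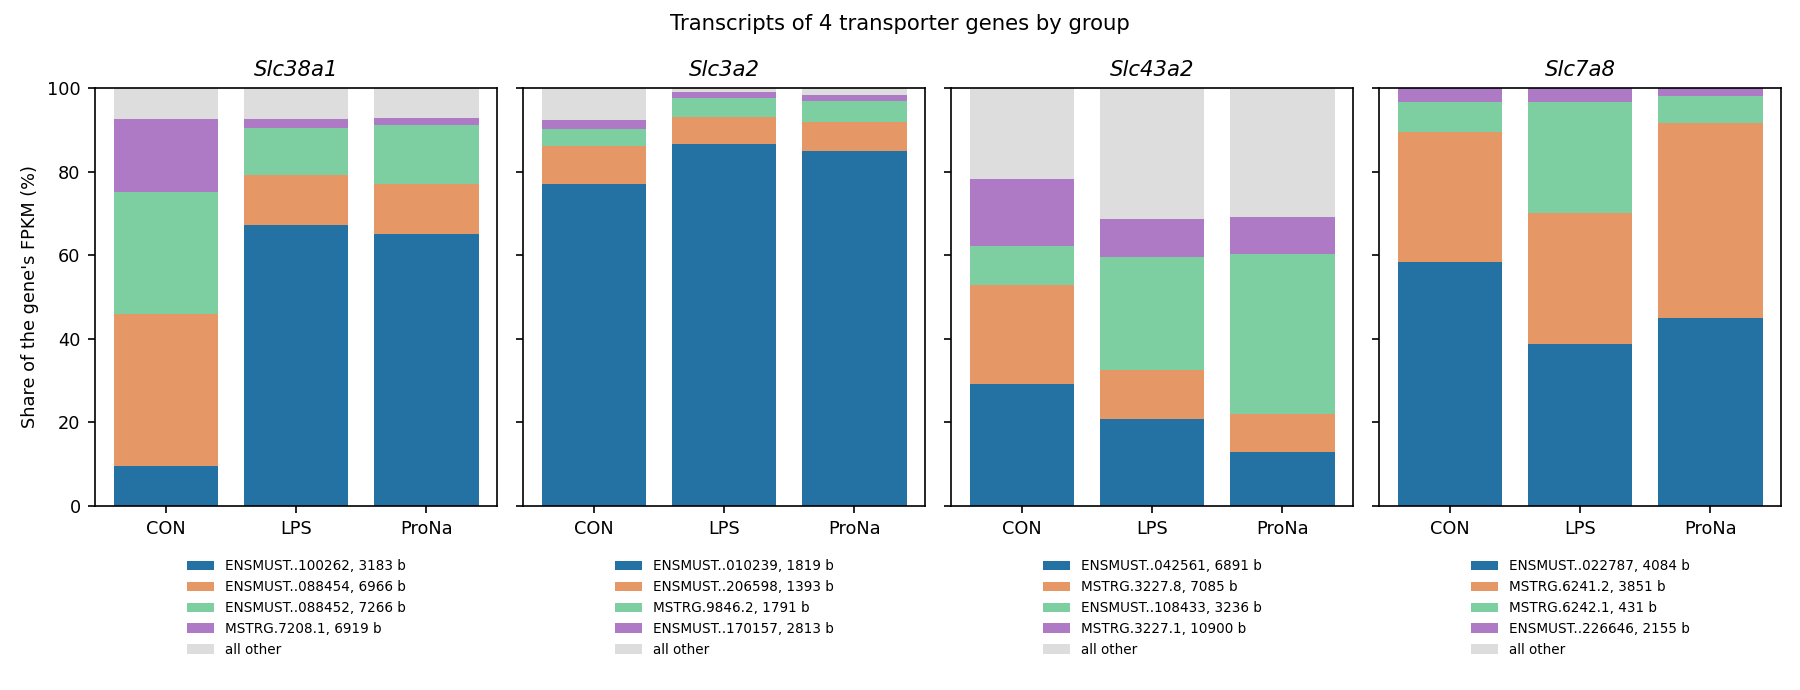
Share of a gene's FPKM (vertical axis, percent) held by each of its leading transcripts in CON, LPS and ProNa, for Slc38a1, Slc3a2, Slc43a2 and Slc7a8, with all other transcripts in grey. The 3183-base transcript of Slc38a1 goes from 9.59% in CON to 67.1% in LPS and 65.1% in ProNa.

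Genes around the 10 transporters were taken from 4 lists. Some lists share genes, so their counts are not separate. Asns and Cth are in those of the starvation response and of amino acid metabolism. Sesn2 and Eif4ebp1 are in those of mTORC1 sensing and of the starvation response. The first list holds 52 other amino acid transporters of the plasma membrane and lysosome. For LPS against CON the authors' deposited table tests 32 of them, with 16 higher and 8 lower, 75.0% called beside 55.4% of all genes, and a median log2 fold change of 0.75. For ProNa against LPS it tests 24, with 3 higher and 10 lower, 54.2% called beside 30.6%, and a median of -0.19. For ProNa against CON it tests 30, with 13 higher and 9 lower, 73.3% called beside 54.4%, and a median of 0.52. Among those of at least 1 FPKM in either group, Slc15a3 had the largest rise for LPS against CON in the authors' deposited table. Its log2 fold change was 5.96 there, ahead of Slc7a11 at 5.44. The FPKM ratio was larger for Slc7a11, 84.9 against 54.1. Much of the Slc7a11 level in CON lay in assembled transcripts, so its ratio depends on them. Slc15a3, a lysosomal carrier of histidine and small peptides, had 11.9 FPKM in CON, 646 FPKM in LPS and 725 FPKM in ProNa. Slc6a8, the creatine carrier, had 11.2, 107 and 58.7 FPKM and a log2 fold change of -0.72 for ProNa against LPS in the authors' deposited table (adjusted p 1.44e-20).

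Other carriers of that list went different ways. Slc6a6, the taurine carrier, had 203 FPKM in CON, 96.2 FPKM in LPS and 76.3 FPKM in ProNa, with a log2 fold change of -0.86 for LPS against CON in the authors' deposited table. Slc16a10, a carrier of aromatic amino acids, had 22.2, 10.4 and 11.7 FPKM, with -1.27 for LPS against CON and 0.37 for ProNa against LPS in the authors' deposited table. The betaine carrier Slc6a12 had 209, 200 and 115 FPKM. Its log2 fold change for ProNa against LPS was -0.63 in the authors' deposited table (adjusted p 4.10e-27). For LPS against CON it was 0.16 in the authors' deposited table (adjusted p 0.00407), a call whose sign turns on the FPKM scale. Slc7a1, the main carrier for arginine uptake, had 24.6, 31.8 and 22.1 FPKM, with 0.63 for LPS against CON and -0.39 for ProNa against LPS in the authors' deposited table (adjusted p 4.38e-04).

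Likeness of pattern was measured over the 3 group values only, as the Euclidean distance between log2(FPKM + 0.5) after the mean of each gene was subtracted. Among 21 genes of the same list, those nearest to Slc7a5 were Slc6a13 at a distance of 0.03, with 38.5, 54.1 and 42.3 FPKM in CON, LPS and ProNa, then Slc38a10 at 0.06 and Slc7a1 at 0.23. Nearest to Slc3a2 were Slc6a8 at 0.48, Slc66a1 at 1.06 and Slc7a15 at 1.54. Each of the 3 lay farther from Slc3a2 than the nearest genes did from Slc7a5.

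The list of the amino acid starvation response holds Gcn2 and Atf4 themselves beside other genes of the response, and most of it rose with LPS. Of 21, the authors' deposited table tests 20 for LPS against CON, with 15 higher and 3 lower and a median log2 fold change of 2.12. That is 90.0% called, beside 55.4% of all genes, of which 28.1% were higher. For ProNa against LPS it tests 19, with 1 higher and 11 lower, 63.2% called beside 30.6% of all genes, and a median of -0.31. For ProNa against CON it tests 20, with 14 higher and 2 lower, 80.0% called beside 54.4%, and a median of 2.06. Ddit3 (CHOP), a transcription factor of prolonged stress, had 17.7 FPKM in CON, 503 FPKM in LPS and 247 FPKM in ProNa, and its log2 fold change for ProNa against LPS was -0.92 in the authors' deposited table (adjusted p 7.36e-44). Ppp1r15a (GADD34), which restores translation, had 24.5, 295 and 163 FPKM. Trib3, a pseudokinase that restrains the response, had 5.97, 94.0 and 57.6 FPKM.

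Not every gene of this response moved alike between LPS and ProNa. Asns, asparagine synthetase, had 53.8, 203 and 194 FPKM, and its log2 fold change of 0.06 for ProNa against LPS in the authors' deposited table missed the threshold (adjusted p 0.451). Cth, which makes cysteine, had 2.23, 44.1 and 40.4 FPKM, with 0.01 in the same comparison of the authors' deposited table (adjusted p 0.957). The sensor kinase Gcn2 itself, gene Eif2ak4, fell with LPS, from 13.0 FPKM to 4.64, and had 3.79 FPKM in ProNa. Its log2 fold change for LPS against CON was -1.13 in the authors' deposited table. Gcn1 and Eif2s1 were the other genes of the list called lower for LPS against CON. Whether Gcn2 or Atf4 drove the rise of the list was not tested.

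The list of amino acid sensing to mTORC1 was split. All 39 genes are tested for LPS against CON in the authors' deposited table, with 15 higher and 16 lower, 79.5% called beside 55.4% of all genes, and a median log2 fold change of -0.06. For ProNa against LPS 37 are tested, with 4 higher and 8 lower, and the 32.4% called is near the 30.6% of all genes. For ProNa against CON 39 are tested, with 14 higher and 16 lower, 76.9% called beside 54.4%. That last split is 11 higher and 19 lower on the FPKM scale. The kinase gene Mtor, named after its values were seen, had 15.6 FPKM in CON, 6.56 FPKM in LPS and 7.02 FPKM in ProNa, with a log2 fold change of -1.12 for LPS against CON in the authors' deposited table. The leucine-binding sestrins went opposite ways: Sesn2 had 8.69, 21.2 and 15.0 FPKM and Sesn1 25.7, 2.71 and 2.74 FPKM. Their log2 fold changes for LPS against CON in the authors' deposited table were 1.55 and -2.80. Flcn, a folliculin complex gene, had 24.0, 38.2 and 23.5 FPKM, with -0.58 for ProNa against LPS in the authors' deposited table (adjusted p 5.66e-13).

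**Figure D5:**
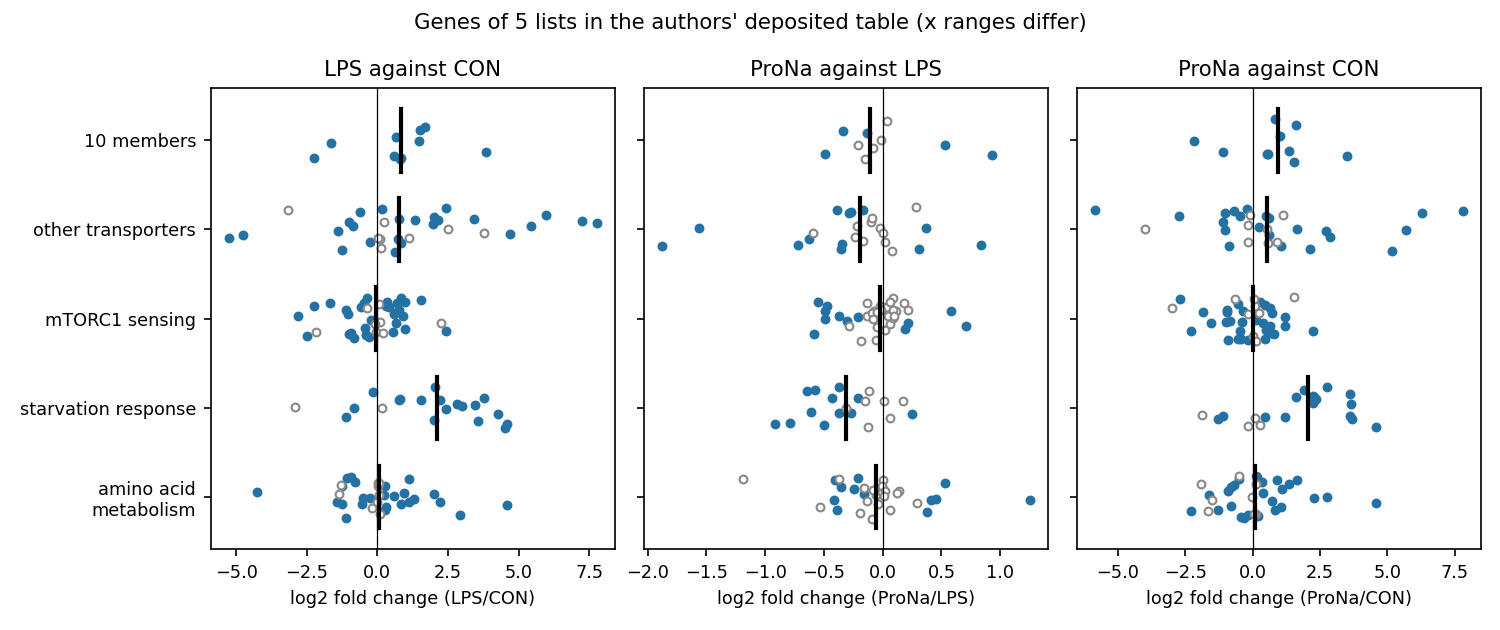
Log2 fold changes from the authors' deposited table (horizontal axis, with a range of its own in each panel) for the 10 transporters and the tested genes of the 4 lists around them, with 1 point per gene, filled for an adjusted p under 0.05, and a bar at the median. For LPS against CON the median is 0.82 for the 10 transporters, 0.75 for other transporters and 2.12 for the starvation response.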

How the data were processed

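RNA of 9 RAW264.7 samples was grouped by title into CON, LPS and ProNa, 3 each. The submitters' processing notes name the aligner HISAT2, the assembler StringTie, DESeq2 and build GRCm39, without versions. The deposited matrix holds FPKM per transcript, per the file headers, for 140725 reference and 12638 assembled transcripts. Its CON, LPS and ProNa columns are the authors' group values. Another 9 columns, of single libraries, match no label and entered no step. For 53700 genes and each comparison, the authors' deposited table holds log2 fold changes. The p-value and the adjusted p there are the authors' own, per the file headers. Adjusted p-values listed at exactly 1 were treated as missing. Depth is unknown. Whether counting used strand is not given here.

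FPKM were summed by gene identifier with pandas 2.3.3. The planned limma fit needs values per library and was replaced by the authors' tests. The members and the gene lists were chosen with earlier results of these data known. Named genes are all 10 members and, from each list and comparison, the 3 genes with the largest positive and the 3 with the largest negative log2 fold change among those called with at least 1 FPKM in a group compared. Of these, the text prints a part. Slc7a6, Slc7a10 and Slc38a10 among others appear as light chains or by likeness, and Mtor was added outside the rule after its values were seen. Promoter sequences are from RefSeq, GRCm38.p6, and transcript structures from GENCODE M21, another build than the authors'. Alternatives were other thresholds, the FPKM scale, pseudocounts of 0.1, 0.5 and 1, a filter at 1 FPKM and annotated transcripts alone. The adjustment of p-values and the rule for a call were tested on simulated p-values, and the other steps were not.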

Additional observations from a re-analysis of the deposited data

How the results depend on the processing

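With at least a 2-fold change required beside the adjusted p, 6 transporters were called for LPS against CON and 0 for ProNa against LPS in the authors' deposited table, where 5 passed the adjusted p alone. By the same rule the other transporters had 2 calls for ProNa against LPS and 14 for ProNa against CON, the mTORC1 list 8, 0 and 8 for LPS to CON, ProNa to LPS and ProNa to CON, the starvation list 0 for ProNa against LPS, and the metabolism list 13, 1 and 10 in that order. The 70 other comparisons of a main value with an alternative setting stayed within 1.5 times. Several of these concern the same main value. Over annotated transcripts alone, 2 genes of the lists turned: Itfg2 had a log2 FPKM ratio of 0.19 for ProNa to LPS, and Slc7a14 had 0.29 for LPS to CON and 0.38 for ProNa to CON. Of the log2 differences of the transporters under other scales, 111 stayed within 1.5-fold and 0 changed direction where called. The 9 that moved further belong to Slc38a1, Slc43a2, Slc7a7 and Slc7a8, among them 2.06 for Slc38a1 in LPS to CON over annotated transcripts and 0.94, 0.88 and 0.82 for Slc7a7 in ProNa to CON with pseudocounts of 0.1, 0.5 and 1. No paired analysis was possible because the library columns could not be assigned to samples. Leaving out replicates and the limma fit were not run for the same reason.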

Other observations

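Enzymes that handle what the transporters bring in were read from a list of 35 genes of glutamine, serine and branched-chain amino acid metabolism. The authors' deposited table tests 34 for LPS against CON, with 14 higher and 11 lower, 73.5% called beside 55.4% of all genes, and a median log2 fold change of 0.04. On the FPKM scale the split was 12 and 13. For ProNa against LPS it tests 31, with 5 higher and 7 lower, 38.7% called beside 30.6% of all genes. For ProNa against CON it tests 34, with 15 higher and 11 lower, or 10 and 16 on the FPKM scale, 76.5% called beside 54.4%. Bcat1, the cytosolic branched-chain aminotransferase, had 13.9 FPKM in CON, 48.4 FPKM in LPS and 33.8 FPKM in ProNa, and its log2 fold change for ProNa against LPS was -0.39 in the authors' deposited table (adjusted p 4.24e-06). Bckdha, a subunit of the complex that acts after it, had 34.0, 14.8 and 10.6 FPKM, with -0.93 for LPS against CON in the authors' deposited table.

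Glul, glutamine synthetase, had 18.5 FPKM in CON, 5.67 FPKM in LPS and 7.44 FPKM in ProNa. Like Slc1a5, and like Bckdk of the same list, Glul was lower in LPS than in CON and higher in ProNa than in LPS. The log2 fold changes of Glul were -1.44 and 0.53 in the authors' deposited table. How many of all genes share this pattern was not counted. Ass1, which makes the arginine precursor argininosuccinate, was low, at 0.823, 0.85 and 1.53 FPKM, and ProNa against LPS gave 1.25 in the authors' deposited table (adjusted p 0.0063).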
